A study of Homo sapiens with 9 samples.

Results

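Tight-junction genes were examined in 9 RNA libraries of 786-0 cells. The group holds 9 genes of the 58735 in the count table, chosen by name: the claudins CLDN1, CLDN2, CLDN4, CLDN7, CLDN11, CLDN12 and CLDN15, occludin (OCLN) and TJP1, which encodes the scaffold ZO-1. 786-0 is an established line of clear cell renal cell carcinoma that lacks functional VHL and carries an inactivating mutation of HIF1α, so that HIF2α (gene EPAS1) is its active HIF. The 3 groups, with 3 libraries each, were untreated wild-type cells (control), wild-type cells given 10 µM PT2385 for 48 h, and 786-0 cells in which HIF2α had been knocked out (KO). PT2385 is an antagonist that keeps HIF2α from pairing with its partner HIF1β. All 3 groups share the 786-0 background and its VHL and HIF1α defects, and all were kept under normoxia for 48 h in DMEM with serum. How the knockout was made and whether it is 1 clone are not given in the sources used here. The KO also differs from control as a line, so the knockout of HIF2α and any other difference of that line cannot be told apart. Nothing in the labels says that the replicates were separate cultures, so the p-values measure the spread between these libraries only.

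Each library held between 11881000 and 14730081 counted reads. EPAS1, the knocked-out gene, gave 3226, 3210 and 2788 reads in control, 3075, 3317 and 3132 with PT2385 and 262, 360 and 307 in KO. Its level fell by 3.52 on the log2 scale in KO (SE 0.0963, adjusted p = 2.15e-09, edgeR) and gave a log2 fold change of -0.11 with PT2385 (SE 0.0746, adjusted p = 0.459). The summed level of 7 markers of this renal line (PAX8, vimentin and keratins among them) lay between 5994 and 6684 CPM (counts scaled by library size) in the 9 libraries. Vimentin carried most of this sum, with group means of 4257 to 4733 CPM, so the sum hides changes of the other markers. The 7 proximal tubule markers summed to at most 3.16 CPM, most of it from CUBN. The mean level of CUBN was 2.03 CPM in control, 1.54 CPM with PT2385 and 2.015 CPM in KO. Of the 7 markers, 3 (LRP2, SLC22A6 and SLC22A8) had 0 reads throughout. Likewise 3 of 5 markers of the loop and distal tubule and 3 of 6 of the collecting duct were at 0, and these lists summed to at most 2.09 and 0.562 CPM. The endothelial markers summed to 0.08 to 0.17 CPM in control, 0.07 to 0.21 CPM with PT2385 and 0.41 to 0.62 CPM in KO. Of these, PECAM1 and VWF were at 0, and TEK gave 4 to 6 reads in the KO libraries against 0 to 1 in control. The leukocyte markers summed to 0.08 to 0.75 CPM in control, 0.15 to 0.77 CPM with PT2385 and 0.69 to 1.37 CPM in KO. Of these, CD3E was at 0, and CD14 gave 6 to 18 reads in KO against 0 to 9 in control. The markers of glomerular epithelium, carried by PODXL and WT1, summed to 40.5 to 49.3 CPM in control, 33.5 to 41.95 CPM with PT2385 and 31.0 to 38.4 CPM in KO. The 6 fibroblast markers, of which COL1A2, COL3A1 and DCN were at 0, summed to 6.99 to 8.89 CPM in control, 8.45 to 10.6 CPM with PT2385 and 2.70 to 4.46 CPM in KO. The part of these marker genes in the results below was not tested. In RNA from whole cultures, a transcript made by fewer cells and a transcript made less in each cell cannot be told apart.

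Tight junctions seal the space between neighbouring epithelial cells. Claudins are membrane proteins whose extracellular loops meet across that space, and the mix of claudins sets which ions and how much water pass. CLDN2 and CLDN15 form channels for small cations, and CLDN2 also for water, as in the proximal tubule. CLDN1 is a sealing claudin that in the kidney marks the parietal cells of Bowman's capsule, and CLDN4 and CLDN7 are claudins of the distal nephron and collecting duct. CLDN11 is known from myelin and the testis. CLDN12 lacks the C-terminal motif by which most claudins bind the ZO scaffolds. Occludin, a membrane protein with a MARVEL domain, lies along the contacts between a pair of cells, and ZO-1 links claudins and occludin to the actin cytoskeleton.

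The genes lie apart in the genome (GRCh38). CLDN1 spans chr3:190305707-190322446 on the minus strand and CLDN2 spans chrX:106900164-106930861 on the plus strand. CLDN4, CLDN12 and CLDN15 lie on chromosome 7, at chr7:73799542-73832690, chr7:90383721-90513402 and chr7:101232092-101238820. CLDN7 is at chr17:7259903-7263983, CLDN11 at chr3:170418868-170454733, OCLN at chr5:69492292-69558104 and TJP1 at chr15:29699367-29968915. Promoter windows of CLDN1, CLDN2 and TJP1 are shown as examples of a sealing claudin, a channel-forming claudin and the scaffold, so that the letters of the HIF element can be looked for in them. The windows are the 250 bases before a RefSeq start site (GRCh38.p14), read 5′ to 3′ on the gene's strand, at chr3:190322447-190322696 (minus) for CLDN1, chrX:106918110-106918359 (plus) for CLDN2 and chr15:29969050-29969299 (minus) for TJP1. Capitals mark a match to ACGTG or GCGTG, the core of the HIF element, to CAGGTG, an E-box bound by Snail and ZEB factors, or to GTTAAT, a half-site of HNF1, each searched on both strands.
CLDN1: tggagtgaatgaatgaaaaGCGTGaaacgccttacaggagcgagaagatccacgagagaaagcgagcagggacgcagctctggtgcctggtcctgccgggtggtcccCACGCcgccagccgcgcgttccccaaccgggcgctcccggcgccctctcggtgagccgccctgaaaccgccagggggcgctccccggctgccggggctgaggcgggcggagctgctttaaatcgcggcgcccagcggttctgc
CLDN2: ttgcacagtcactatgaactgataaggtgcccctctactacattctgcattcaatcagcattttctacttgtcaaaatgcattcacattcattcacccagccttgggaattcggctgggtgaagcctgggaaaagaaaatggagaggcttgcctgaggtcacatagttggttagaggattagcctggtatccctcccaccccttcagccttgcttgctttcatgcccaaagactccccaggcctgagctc
TJP1: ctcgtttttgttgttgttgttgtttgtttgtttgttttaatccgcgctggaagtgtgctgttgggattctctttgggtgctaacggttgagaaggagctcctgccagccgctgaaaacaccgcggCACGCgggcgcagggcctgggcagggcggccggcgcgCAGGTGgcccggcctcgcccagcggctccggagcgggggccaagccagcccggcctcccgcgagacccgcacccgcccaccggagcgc

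The CLDN1 window held GCGTG at 231 bases before the start and its complement at 143. The TJP1 window held the complement of GCGTG at 125 bases and CAGGTG at 88 bases before the start. Of the 3 other TJP1 start-site windows, not shown, 1 held GCGTG at 2 places and 2 held none of these motifs. The CLDN2 window held none of these motifs, and neither did the window at the other CLDN2 start site, at chrX:106899914-106900163. Among 35116 RefSeq windows of the same length, 43.2% held ACGTG or GCGTG, 17.5% held CAGGTG and 6.23% held GTTAAT. A missing match says only that these letters are not in this window.

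Of the claudins, CLDN1, CLDN4, CLDN12 and CLDN15 were well expressed in control cells. On the scale of RPKM (reads scaled by library size and by the length of the merged exons), which allows genes to be compared, control cells held CLDN1 at 37.1 ± 1.75 (SD, n = 3), TJP1 at 26.6 ± 0.101, CLDN4 at 20.3 ± 1.09, CLDN12 at 11.3 ± 1.07 and CLDN15 at 4.78 ± 0.15. CLDN2 followed at 0.479 ± 0.0952 RPKM and OCLN was lower still, at 0.0763 RPKM. The ranges of neighbours in this order did not overlap in control. The order of the middle of this list rests on the length used, since the merged exons of CLDN12 are much longer than its longest transcript. Per length of the longest transcript its control level was 21.3 RPKM against 22.9 for CLDN4, and TJP1 stood at 37.9 against 39.1 for CLDN1. CLDN7 had 0 reads in all 9 libraries, and CLDN11 had 0, 1 and 1 reads in control, 1, 1 and 1 with PT2385 and 0, 3 and 2 in KO, at or under the floor of 3 reads taken as detection. No fold change is given for these members.

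**Figure D1:**
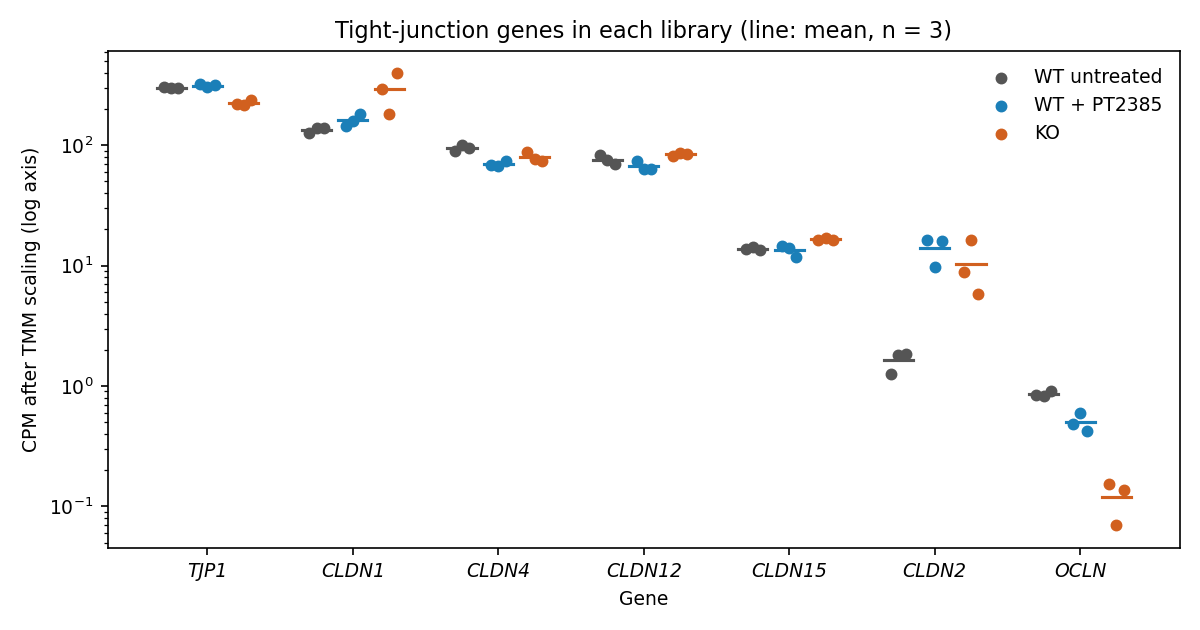
Level in CPM (log axis) of each detected member in each of the 9 libraries; points are libraries and short lines are group means (n = 3). CLDN2 is at 1.26 to 1.83 CPM in the control libraries and at 5.76 CPM or more in all PT2385 and KO libraries, and CLDN1 spreads widely in KO.

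Control and PT2385-treated cells were compared to ask what blocking HIF2α for 48 h does to these genes. Of the 9 members, 6 passed the filter on low counts. CLDN2 was up-regulated, CLDN4 was down-regulated, and the other 4 (CLDN1, CLDN12, CLDN15 and TJP1) did not pass an adjusted p of 0.05. For all genes, 7.70% of 15089 were called, 3.08% higher and 4.62% lower. The median log2 fold change of the 6 members was -0.0032, against 0.00099 over all genes tested. The groups did not overlap for 4 of the 6, against 25.9% of all genes tested.

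Control and KO cells were compared to ask how the same genes differ in the HIF2α knockout. Here 7 members were tested. CLDN1 and CLDN2 were up-regulated, CLDN4, OCLN and TJP1 were down-regulated, and CLDN12 and CLDN15 did not pass the test. OCLN passed the filter on low counts only through its control libraries. In this comparison 30.1% of 15192 genes were called, 14.7% higher and 15.4% lower. The median of the 7 members was 0.16 on the log2 scale, against 0.0038 over all genes. The groups did not overlap for 6 of the 7, against 44.0% of all genes.

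The KO was also set against PT2385-treated cells, to ask where the knockout and the inhibition of HIF2α differ. CLDN1 and CLDN12 were higher in KO, TJP1 was lower, and CLDN2, CLDN4 and CLDN15 did not pass the test, out of 6 tested. All genes gave 18.8% called of 15402, with 8.47% higher and 10.3% lower. The 6 members had a median log2 fold change of 0.24 (all genes, -0.0035), and 5 of them did not overlap between the groups, against 35.1% of all genes. The 3 comparisons share libraries in pairs, so they are not independent of each other.

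**Figure D2:**
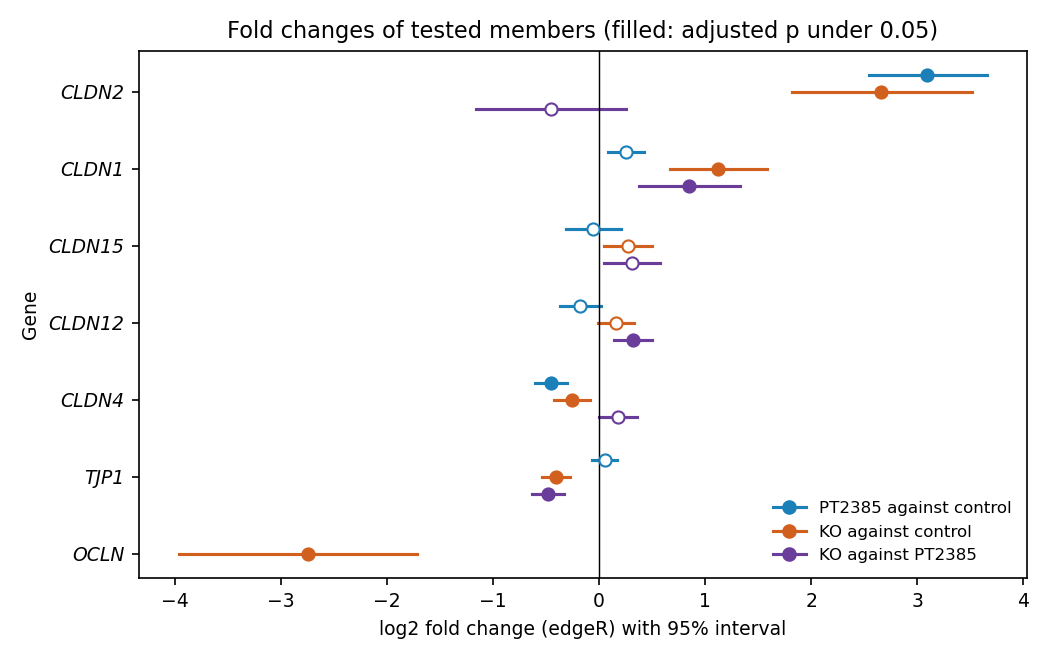
Log2 fold change of each tested member in the 3 comparisons, with its 95% interval from the edgeR model as a line; filled points passed an adjusted p of 0.05. CLDN2 lies near 3 in both comparisons with control, and TJP1 lies near 0 with PT2385 and near -0.4 in KO.

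CLDN2, the cation and water channel of the leaky nephron, showed the largest rise among the tested members in both comparisons with control. It gave 15, 22 and 22 reads in control, 205, 130 and 229 with PT2385 and 114, 234 and 84 in KO (ENSG00000165376). Every treated or KO library was above every control library, and the KO libraries spread more than the others, from 84 to 234. In CPM the level was 1.63 ± 0.325 in control, 14.1 ± 3.83 with PT2385 and 10.3 ± 5.43 in KO (SD, n = 3). The log2 fold change was 3.09 with PT2385 (SE 0.254, adjusted p = 7.39e-06, edgeR), an 8.54-fold rise. In KO it was 2.66 (SE 0.386, adjusted p = 0.000381), a 6.31-fold rise. KO and PT2385 gave a log2 difference of -0.46, with a 95% interval from -1.16 to 0.25 and an adjusted p of 0.376, so the libraries do not fix whether the 2 conditions differ for CLDN2. That comparison rests on KO replicate 2: without it CLDN2 was 0.96 log2 units lower in KO than with PT2385 (adjusted p = 0.03, and 0.0247 to 0.726 over the alternatives tried). 

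CLDN2 lies wholly inside the span of MORC4, a gene on the opposite strand (chrX:106813871-107000212), with 30698 bases of shared span and 0 shared exon bases. The strand setting of the counting is not given in the sources used here, so reads of unspliced MORC4 could be counted for CLDN2 only where they fall on CLDN2 exons. MORC4, which encodes a nuclear ATPase of the MORC family, gave 433, 428 and 453 reads in control, 714, 776 and 979 with PT2385 and 889, 977 and 1114 in KO. It therefore moved the same way as CLDN2, by 0.75 log2 units with PT2385 (SE 0.0844, adjusted p = 0.000123, edgeR) and 0.97 in KO (SE 0.0746, adjusted p = 3.17e-06). Set against this neighbour, for each 100 reads of MORC4 there were 3.46, 5.14 and 4.86 reads of CLDN2 in control, 28.7, 16.8 and 23.4 with PT2385 and 12.8, 24.0 and 7.54 in KO. No treated or KO library fell within the control range of this ratio (exact permutation test, two-sided p = 0.1 for each, the smallest that 3 libraries against 3 allow). The other gene with exons against CLDN2, RIPPLY1, shares 341 exon bases and had at most 5 reads in any library.

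**Figure D3:**
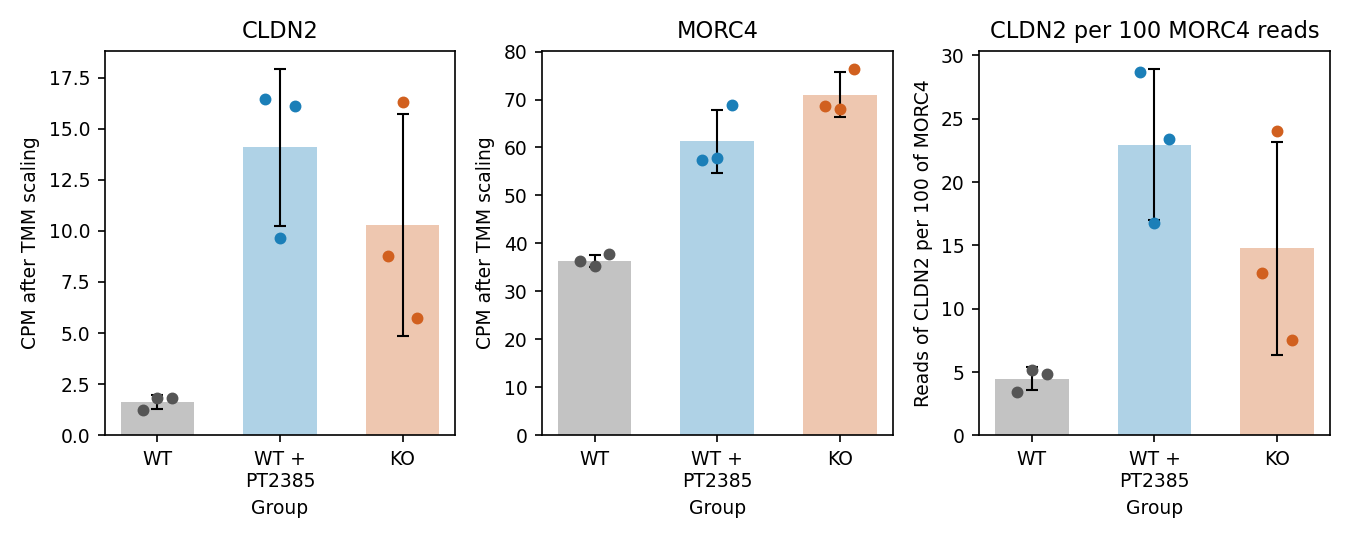
Level in CPM of CLDN2 (left) and of MORC4, the gene whose span holds CLDN2 (middle), and CLDN2 reads per 100 MORC4 reads (right), for untreated wild-type (WT), PT2385-treated and KO cells; points are libraries, bars are group means and error bars are the SD (n = 3). In the right panel control libraries lie between 3.46 and 5.14, and the PT2385 and KO libraries between 7.54 and 28.7.

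CLDN1, the sealing claudin and the most abundant member per length, was up-regulated in KO. Its counts were 1518, 1676 and 1667 in control, 1803, 2137 and 2560 with PT2385 and 3835, 2610 and 5771 in KO (ENSG00000163347). The 3 groups did not overlap with one another, and the KO libraries differed among themselves by more than those of the other groups. The level was 134.7 ± 6.34 CPM in control, 161.3 ± 17.8 with PT2385 and 291.1 ± 107 in KO (SD, n = 3). The KO rise was 1.12 log2 units (SE 0.207, adjusted p = 0.00182, edgeR), and it stayed between 0.84 and 1.38 and past the threshold with any 1 library left out. With PT2385 the log2 fold change was 0.26 (SE 0.0783) and missed the threshold with an adjusted p of 0.0735. With the replicate number as a block in the model, since the numbers paired the libraries of these groups, it was 0.25 and passed, with an adjusted p of 0.00463 (0.00463 to 0.516 over the alternatives tried), in a fit that called 6.83% of all genes higher. KO libraries were 0.85 log2 units above those with PT2385 (SE 0.216, adjusted p = 0.0185). This difference lost its call without KO replicate 1, PT2385 replicate 1 or PT2385 replicate 2, with adjusted p of up to 0.0677. Among the KO libraries, replicate 2 was the lowest for CLDN1 and the highest for CLDN2.

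CLDN16 is a claudin of the thick ascending limb needed for magnesium and calcium reabsorption. In the GENCODE annotation it starts 94 bases from the 5′ end of CLDN1 and runs the other way (chr3:190322541-190412138). It gave 0, 1 and 1 reads in control, 0, 1 and 2 with PT2385 and 25, 24 and 33 in KO. KO thus held 82 reads in total against 2 in control, a ratio per sequenced read of 35.3 with a 95% interval from 9.47 to 296.4 that covers counting error only. CLDN16 passed the filter on low counts only through its KO libraries, and it was not tested in PT2385 against control. The calls against control (adjusted p = 4.98e-05, edgeR) and against PT2385 (adjusted p = 0.000182) therefore add no support beyond these counts. Relative to its neighbour CLDN16 stayed rare, with 5.72 to 9.20 reads per 1000 of CLDN1 in KO. The RefSeq start sites of CLDN16 seen here do not include that start. They lie at chr3:190388163 and at chr3:190290361, beyond CLDN1, so that from the latter the 2 genes overlap.

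CLDN4, the claudin of the distal nephron, was down-regulated upon PT2385 treatment. There were 1075, 1221 and 1140 reads in control, 855, 902 and 1041 with PT2385 and 1130, 1101 and 1071 in KO (ENSG00000189143). After scaling for depth these are 95.2 ± 5.13, 69.7 ± 3.20 and 79.1 ± 7.19 CPM (SD, n = 3), and all PT2385 libraries lay below all control libraries. The fall with PT2385 was 0.45 log2 units (log2 fold change -0.45, SE 0.0679, adjusted p = 0.00117, edgeR), called with any library left out. In KO the log2 fold change was -0.26 (SE 0.0773, adjusted p = 0.0273), and this call was lost without control replicate 2, control replicate 3, KO replicate 2 or KO replicate 3, with adjusted p of up to 0.113. KO and PT2385 differed by 0.18 log2 units, with an interval from -0.0026 to 0.36 (adjusted p = 0.169).

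CLDN12 and CLDN15 did not pass the test against control in either condition. CLDN12 gave 997, 908 and 835 reads in control, 927, 859 and 909 with PT2385 and 1058, 1234 and 1240 in KO. Its log2 fold change was -0.18 with PT2385 (95% interval -0.37 to 0.015, adjusted p = 0.281, edgeR) and 0.16 in KO (adjusted p = 0.144). The 2 non-significant differences point opposite ways, and KO was 0.32 log2 units above PT2385 (SE 0.081, adjusted p = 0.0191). That call was lost without KO replicate 1, KO replicate 2 or PT2385 replicate 2 (adjusted p of up to 0.098). CLDN12 shares exon bases on its own strand with CDK14, GTPBP10, PTTG1IP2 and an unnamed gene, and reads from the shared stretches cannot be assigned to one gene by strand.

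CLDN15, which like CLDN2 forms cation channels, gave 163, 174 and 162 reads in control, 180, 187 and 166 with PT2385 and 211, 245 and 238 in KO. The level was 13.8 ± 0.433 CPM in control, 13.4 ± 1.47 with PT2385 and 16.6 ± 0.449 in KO (SD, n = 3). The KO libraries lay above all control libraries, yet the log2 fold change of 0.27 did not pass the adjusted threshold (SE 0.102, adjusted p = 0.0687, edgeR). The log2 fold change with PT2385 was -0.06 (adjusted p = 0.836), so the 2 channel-forming claudins gave unlike values under the drug.

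OCLN was present at the edge of detection and was lower in KO. It gave 10, 10 and 11 reads in control, 6, 8 and 6 with PT2385 and 2, 1 and 2 in KO (ENSG00000197822), so all KO libraries were at or under the floor of 3 reads. The 3 KO libraries held 5 reads against 31 in control, a ratio per sequenced read of 0.139 with a 95% interval from 0.0422 to 0.360 for counting error only. OCLN passed the filter on low counts in this comparison only through its control libraries. In the edgeR fit the log2 fold change was -2.74 (SE 0.511, adjusted p = 0.0016), a value that depends on the prior count. Its call therefore adds no support beyond the counts given. With PT2385 the 20 reads against 31 gave a ratio of 0.581 with an interval from 0.314 to 1.05, and OCLN was removed by the filter in the comparisons with PT2385. OCLN has a partial copy on the same chromosome, the pseudogene OCLNP1, and reads that match both may be lost or split in counting.

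TJP1, the ZO-1 scaffold, was down-regulated in KO. Its counts were 3601, 3653 and 3603 in control, 3985, 4074 and 4471 with PT2385 and 2841, 3093 and 3488 in KO (ENSG00000104067). The control libraries were very close to one another, at 300.9 ± 1.14 CPM, against 312.6 ± 8.70 with PT2385 and 224.6 ± 12.7 in KO (SD, n = 3). All KO libraries were below all others. The log2 fold change in KO was -0.41 (SE 0.0602, adjusted p = 0.000412, edgeR), and against PT2385 it was -0.48 (SE 0.0676, adjusted p = 0.000639), both called with any library left out. With PT2385 the log2 fold change was 0.05 with an interval from -0.07 to 0.17 (adjusted p = 0.649).

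The makeup of the claudin pool was then described as the share of each claudin in the summed RPKM of all claudins. The summed level was 76.1 ± 1.77 RPKM in control, 80.8 ± 4.97 with PT2385 and 120.8 ± 27.5 in KO (SD, n = 3). CLDN1 held 48.8 ± 1.31% of it in control, 55.0 ± 3.32% with PT2385 and 64.9 ± 9.92% in KO. CLDN2 went from 0.627 ± 0.113% in control to 5.10 ± 1.31% with PT2385 and 2.81 ± 2.11% in KO. CLDN4 went from 26.6 ± 0.855% to 18.4 ± 0.358% and 14.5 ± 3.59%. A share also depends on the summed level. The mean CLDN4 level was 20.3 RPKM in control, 14.8 with PT2385 and 16.8 in KO, so the lowest share was not the lowest level. For these 3 claudins and for the total, no library of either condition fell within the control range (exact permutation test, two-sided p = 0.1 for each, the smallest possible). The shares of CLDN12, CLDN15 and CLDN23 were compared with control too and gave p of 0.2 to 0.7 by the same test. Of all genes tested, the levels of 25.9% with PT2385 and 44.0% in KO did not overlap those of control. With the length of the longest transcript the CLDN1 share was 42.3%, 48.6% and 58.55% in the same order, an alternative chosen after seeing the data. With PT2385, CLDN2 reached 4.13 RPKM against 4.62 RPKM for CLDN15, with overlapping libraries. In control it had been at 0.479 RPKM against 4.78, and in KO it stood at 3.01 ± 1.59 RPKM, below CLDN15 at 5.72.

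**Figure D4:**
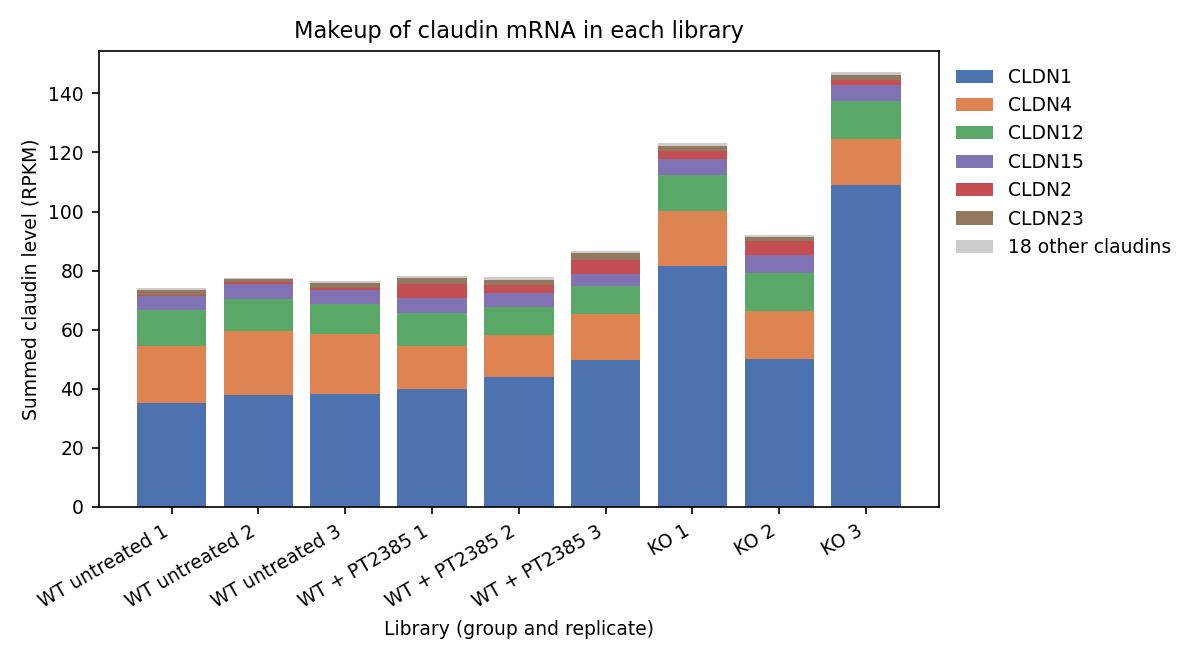
Summed claudin level (RPKM) of each library as a stacked bar, with a colour for each of 6 named claudins and grey for the other 18. CLDN1 is the largest part in all 9 libraries, the KO bars reach 92.1 to 147.1 RPKM against 74.2 to 77.6 in control, and the CLDN2 part is hardly visible in control.

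The remaining claudins contributed little. Of 24 claudin genes in the table, 9 had 0 reads in all libraries, 5 reached at most 3 reads, 5 peaked between 4 and 99 reads, and 5 reached 100 reads in some library. The last are CLDN1, CLDN2, CLDN4, CLDN12 and CLDN15. CLDN23, a claudin of stratified and intestinal epithelia, gave 39, 29 and 44 reads in control, 51, 45 and 74 with PT2385 and 48, 41 and 48 in KO and was not called. CLDN5, the endothelial claudin, had 0 reads throughout.

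Other junction genes, 79 in 6 lists, were examined for the setting of these members: other claudins, other junction membrane proteins, other plaque scaffolds, polarity complexes, junction signalling and transcription factors. Of the 79 genes, 17 had 0 reads in all libraries and 25 were at or under the floor. With PT2385, 44 were tested, 3 were higher and 3 lower, that is 13.6% against 7.70% of all genes, with a median log2 fold change of -0.02. In KO, 45 were tested, 10 were higher and 10 lower (44.4% against 30.1%, median 0.03). In KO against PT2385, 5 were higher and 4 lower of 45 (20% against 18.8%). CLDN16, among those higher in both comparisons with KO, passed the filter on low counts only through its KO libraries. The same 6 genes were called in both comparisons with control: TMEM47, AFDN, ARHGEF11, SNAI2, ZEB2 and VDR. Both comparisons use the same control libraries, and the share of all genes called in both is not reported here. The shared calls are therefore only a description.

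Among the membrane proteins of the junction, 7 were tested. In KO, 1 was higher and 3 were lower, and with PT2385 the gene called was TMEM47. LSR (angulin-1), the receptor that builds tricellular junctions, had 156, 153 and 147 reads in control, 137, 177 and 187 with PT2385 and 14, 12 and 26 in KO. All KO libraries were far below the rest, and the log2 fold change was -3.33 (SE 0.222, adjusted p = 9.99e-07, edgeR). MARVELD2 (tricellulin), the partner of LSR at tricellular contacts, fell by 0.72 on the log2 scale in KO (adjusted p = 0.0119), a call lost without control replicate 3. TMEM47, a claudin-like membrane protein, fell by 0.69 with PT2385 (SE 0.121, adjusted p = 0.00381) and by 0.89 in KO (adjusted p = 0.000131). EPCAM, an epithelial adhesion protein that associates with claudins, gave 29, 29 and 30 reads in control, 29, 41 and 50 with PT2385 and 65, 83 and 85 in KO, with a rise of 1.19 log2 units in KO (SE 0.18, adjusted p = 0.000487).

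Among 13 plaque scaffolds tested, 1 was higher and 5 were lower in KO, and AFDN was the gene called with PT2385 (log2 fold change -0.21, SE 0.0581, adjusted p = 0.0476, edgeR). With the replicate block PATJ (-0.20, adjusted p = 0.0184) and AMOT (-0.22, adjusted p = 0.0494) were also called lower with PT2385. That fit called 8.45% of all genes lower. Without the block the adjusted p was 0.0862 for PATJ and 0.181 for AMOT (edgeR). AMOTL1, an angiomotin that binds junctions and YAP, had 642, 529 and 534 reads in control, 616, 676 and 758 with PT2385 and 78, 70 and 73 in KO. Its log2 fold change in KO was -3.15 (SE 0.129, adjusted p = 2.5e-08, edgeR), while PT2385 libraries overlapped the control range. AMOT, of the same family, fell by 0.41 (adjusted p = 0.0122), AFDN (afadin) by 0.20 (adjusted p = 0.0174), PATJ by 0.35 (adjusted p = 0.0404) and MAGI3 by 0.23 (adjusted p = 0.03). CGNL1 (paracingulin) rose by 0.35 (adjusted p = 0.0147). AMOTL1 kept its call with each library left out. The calls of the others were lost without control replicate 3 (AMOT, CGNL1 and PATJ), control replicate 1 (AFDN, CGNL1, MAGI3 and PATJ), control replicate 2 (AFDN, MAGI3 and PATJ), KO replicate 1 (AFDN, MAGI3 and PATJ), KO replicate 2 (AFDN and MAGI3) or KO replicate 3 (PATJ), with adjusted p of up to 0.139. Of 5 polarity genes tested, PARD3B (0.70, adjusted p = 0.0011) and PRKCI (0.24, adjusted p = 0.012) were higher in KO. The PRKCI call was lost without control replicate 1 or control replicate 2.

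Of the 9 signalling genes tested in KO, ARHGEF11 was higher (0.26, adjusted p = 0.0109, edgeR, a call lost without control replicate 2), MYLK, the myosin light chain kinase that opens junctions, was higher (0.43, adjusted p = 0.00223), and ARHGAP17, a GTPase activator for Cdc42, was lower (-0.36, adjusted p = 0.00157). Among the transcription factors that act on junction genes, 9 were tested, with 2 higher and 1 lower with PT2385 and 3 higher and 1 lower in KO. VDR, the vitamin D receptor, which is known to drive CLDN2 in the intestine, gave 29, 31 and 36 reads in control, 50, 68 and 76 with PT2385 and 109, 113 and 153 in KO. The groups did not overlap, and VDR rose by 0.85 log2 units with PT2385 (SE 0.199, adjusted p = 0.0219) and by 1.76 in KO (adjusted p = 3.88e-05). SNAI2 (Slug), a repressor of epithelial genes, had 314, 331 and 245 reads in control, 504, 510 and 455 with PT2385 and 698, 561 and 687 in KO. It rose by 0.57 with PT2385 (SE 0.123, adjusted p = 0.014) and by 0.93 in KO (adjusted p = 0.000381). ZEB2, another such repressor, fell by 0.48 with PT2385 (adjusted p = 0.0341) and by 0.38 in KO (adjusted p = 0.00161). With PT2385, VDR lost its call without control replicate 1, control replicate 2 or PT2385 replicate 2, SNAI2 without control replicate 3 or PT2385 replicate 2, and ZEB2 without any 1 of the control libraries or PT2385 replicate 2. ARHGEF11 (0.25, adjusted p = 0.0384) lost its PT2385 call with any 1 library left out, and AFDN kept its own only without PT2385 replicate 1. KLF4, a factor of epithelial differentiation, rose by 1.74 in KO (adjusted p = 4.56e-05), from 86, 90 and 59 reads in control to 251, 268 and 390. GRHL2, OVOL1, OVOL2, CDX2 and HNF4A, transcription factors known from epithelia, had 0 reads in all libraries.

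**Figure D5:**
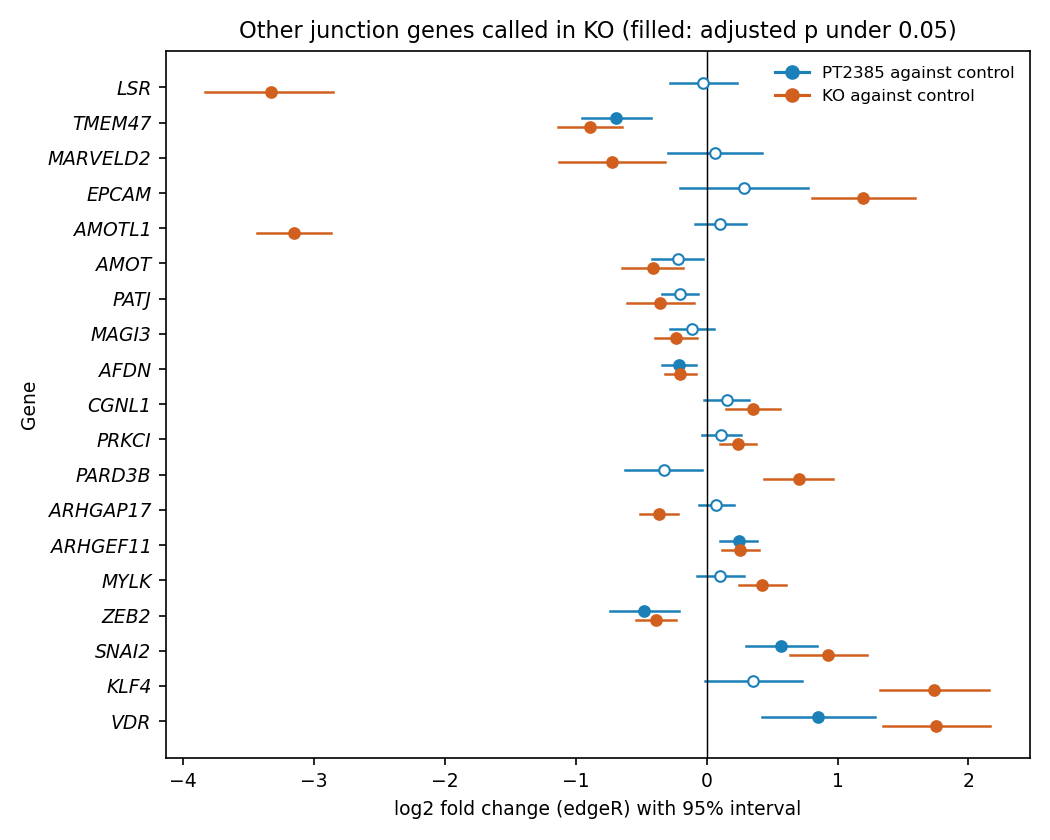
Log2 fold change with its 95% interval (edgeR) of the other junction genes called in KO, without CLDN16, in KO and with PT2385 against control and ordered by list; filled points passed an adjusted p of 0.05. In KO, LSR and AMOTL1 lie below -3 and EPCAM, KLF4 and VDR above 1, whereas the PT2385 values of all these genes lie between -0.69 and 0.85.

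The genes whose log2 levels followed the members most closely over the 9 libraries were found among 10140 genes with a mean of at least 100 reads. For CLDN2 they were MAGED1 (Pearson r = 0.987), PIK3R3 (0.971) and PFKM (0.965). CLDN1 was closest to ZNF121 (0.975), IL7R (0.97) and RSU1 (0.962), and CLDN4 to ENTPD4 (0.959), PFKL (0.948) and the non-coding APCDD1L-DT (0.934). TJP1 was closest to NPTN (0.995), CHSY1 (0.993) and TYRO3 (0.992), and CLDN12 to NNMT (0.977). The points share 3 groups of libraries and depths, so these coefficients describe a common pattern over 9 libraries and carry no p.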

How the data were processed

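RNA from 786-0 cells (control, 10 µM PT2385 for 48 h, KO, 3 libraries each) was sequenced by the authors. Per the submitters' processing notes, reads were trimmed with cutadapt, aligned with STAR to hg38 and counted per gene with featureCounts. Versions, annotation release and the strand setting are not given in the sources used here. The authors deposited raw read counts per gene in 9 columns, of which 0 lacked a sample.

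Groups came from the labels. Of 58735 identifiers, 58207 were matched to GENCODE v44 (GRCh38), which gave symbols, positions and exon lengths. Each pair of groups was fitted on its own with edgeR 4.0.16 (R 4.3.3), using TMM scaling, filterByExpr with a minimum count of 10, the quasi-likelihood test, and p-values adjusted by Benjamini-Hochberg over all tested genes at 0.05. The SE is the absolute log2 fold change before shrinkage by the prior count, divided by the square root of F. The 95% intervals of fold changes centre on that unshrunk value, so at low counts they are not centred on the printed fold change. RPKM is TMM-scaled CPM per kilobase of merged exons. A count of 3 in a library was the floor of detection. Intervals of summed-count ratios (95%, exact) cover counting error only. Single ratios and shares were compared by a two-sided exact permutation test. Totals of 11881000 to 14730081 reads leave members under about 10 reads imprecise. The steps were tested on simulated data.

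The members and lists were chosen with earlier results of these data known. Named genes were the members, the genes overlapping or adjoining them, the called genes of the 6 junction lists, and the 3 genes most correlated with each member of at least 100 mean reads, of which those of CLDN15 are not reported here. The marker genes and the junction genes without a call that the text names were chosen after their values were seen. Same-numbered control and PT2385 libraries deviated together (r = 0.453, 0.137 and 0.431 for replicates 1, 2 and 3), so the numbers were taken to pair these groups, from the data and not the labels. The KO libraries did not meet this rule. Alternatives were DESeq2 1.42.0, other scalings and filters, a stricter threshold, the replicate block, and each library left out.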

Additional observations from a re-analysis of the deposited data

How the results depend on the processing

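CLDN2 kept direction and call at an adjusted p of 0.05 in both comparisons with control under the alternatives that gave it a value. So did CLDN1 and TJP1 in KO, TJP1 in KO against PT2385 and CLDN4 with PT2385. The OCLN call in KO was also kept wherever the gene was tested. That adds no support, since OCLN passed the filter on low counts only through its control libraries. Over the single-gene fits with all libraries, 510 kept direction and side of the threshold, 22 were weaker, 5 stronger and 0 reversed. With 1 library left out these numbers were 305, 50, 4 and 1, the reversal being CLDN15 with PT2385, whose log2 fold change ran from -0.12 without PT2385 replicate 1 to 0.039 without PT2385 replicate 3. At an adjusted p under 0.01, 516 genes were called with PT2385, 2788 in KO and 1657 in KO against PT2385. At that threshold 1 other junction gene was called with PT2385 and 12 in KO, and 1 member in KO against PT2385. With no filter on low counts, 16 junction genes were called in KO against PT2385, in place of 9. Over all genes the same setting called 3606 in place of 2897. The replicate block raised the genes called with PT2385 from 1162 to 2305 the junction genes from 6 to 8 and the members from 2 to 3. In the comparisons with KO the libraries share only a number (r of 0.056 to 0.481 with control and 0.0915 to 0.415 with PT2385), and the block gave 5501 calls in place of 4566. With each library left out in turn, the genes called ran from 574 to 1451 with PT2385, 3344 to 5094 in KO and 1836 to 3190 in KO against PT2385. The junction genes called ran from 1 to 6, 15 to 22 and 9 to 13, and the members called from 2 to 3, 4 to 6 and 1 to 3, in the same order. Per length of the longest transcript, the control RPKM was 39.1 for CLDN1, 22.9 for CLDN4, 21.3 for CLDN12, 6.49 for CLDN15, 0.134 for OCLN and 37.9 for TJP1. Depth limits OCLN, CLDN16 and, in control, CLDN2, and a change of CLDN7 or CLDN11 was not detectable at this depth. Some alternatives use fewer libraries or genes. The cause of these shifts was not tested.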

Other observations

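Among the marker genes of this renal line, the paired keratins KRT8 and KRT18 were higher in both conditions. KRT18 rose by 0.47 log2 units with PT2385 (adjusted p = 0.0158, edgeR) and by 0.85 in KO (adjusted p = 4.66e-05). KRT8 rose by 0.26 (adjusted p = 0.0423) and 0.54 (adjusted p = 0.000101). KRT19, also a keratin of simple epithelia, was not called in either, with a log2 fold change of -0.16 with PT2385 (adjusted p = 0.337, and 0.0464 with the replicate block) and 0.28 in KO (adjusted p = 0.251). PAX2, a kidney lineage factor, fell by 0.44 with PT2385 (adjusted p = 0.0325) and by 1.3 in KO (adjusted p = 2.84e-05). CDH2 (N-cadherin), the classical cadherin of the proximal tubule, fell by 0.22 in KO (adjusted p = 0.0287). With PT2385 its log2 fold change was 0.18, with all treated libraries above all control libraries (adjusted p = 0.0652, and 0.00777 with the replicate block). PAX8 and vimentin were not called against control, though vimentin was called lower with PT2385 in the blocked fit (log2 fold change -0.11, adjusted p = 0.0164). The blocked fit called 8.45% of all genes lower.

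Of the markers of glomerular epithelium, WT1 fell by 0.63 on the log2 scale with PT2385 (adjusted p = 0.0152, edgeR) and by 0.78 in KO (adjusted p = 0.000731), and PODXL (podocalyxin) rose by 0.36 in KO (adjusted p = 0.0355). The fibroblast markers did not share a direction in KO. PDGFRB, a receptor of mesenchymal cells, gave 27, 31 and 28 reads in control, 23, 37 and 31 with PT2385 and 2, 2 and 0 in KO, and COL1A1 fell by 1.10 log2 units in KO (adjusted p = 0.00346). THY1 gave 2, 0 and 1 reads in control, 5, 2 and 1 with PT2385 and 9, 23 and 14 in KO, and was not tested because it did not pass the filter.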
